A study of Mus musculus with 10 samples.

Results

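One library of epiblast-like cells (EpiLCs) lacking the homeobox gene Otx2 was set against 3 libraries of EpiLCs that carry it, 4 of the 10 RNA sequencing libraries of the series. Every gene was taken whose FPKM (fragments per kilobase of transcript, scaled to the mapped total) averaged 1 or more over these 4 libraries, 12159 of 22867 gene symbols. Of these, 299 small RNAs and 60 further entries with failed estimates were kept apart, which left 11800 genes for the counts. A gene was described as outside the range when its FPKM in the Otx2-/- library lay above the highest or below the lowest of the 3 controls.

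The mouse lines were all of 129SV origin. The controls were R1 EpiLC without activin A, R1 EpiLC with activin A at 20 ng/ml and E14 EpiLC. All 4 cultures were taken from embryonic stem cell (ESC) conditions, with LIF and inhibitors of MEK and GSK3, into a serum-free medium with bFGF and knockout serum replacement for 48 h. Whether activin A was added to the E14 or the Otx2-/- EpiLCs is not in the labels, nor is the deleted stretch of Otx2. The Otx2-/- EpiLCs are 1 line with 1 library, so clone, line and genotype cannot be told apart, and the 3 controls differ among themselves in line and in activin A. Control FPKM values below follow the order R1 without activin A, R1 with activin A, E14. ESC libraries of R1 (2), E14 (1) and Otx2-/- (1) entered the same model to estimate the spread. An Otx2-/- ESC line with a doxycycline-inducible Otx2 transgene (tetON), without and with doxycycline (1 library each), served as a separate measurement.

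Otx2 encodes a homeodomain transcription factor of the epiblast and the anterior nervous system, and embryos without it fail to form the forebrain and midbrain. EpiLCs are a culture model of the epiblast shortly after implantation, in which naive pluripotency genes have been shut down and genes such as the growth factor Fgf5 have been switched on. The homeodomain of the Otx family binds the bicoid-type motif TAATCC.

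Approximate depth was between 6.6M fragments in E14 EpiLC and 19M in R1 EpiLC without activin A, with 13M in Otx2-/- EpiLC. At 5 FPKM, a transcript of 2 kb then rested on between 66 and 191 fragments. FPKM in the 4 libraries summed to between 585995 and 613705, and between 11873 and 12133 symbols reached 1 FPKM. Across the 11800 genes, the log2 values of the Otx2-/- library correlated with E14 EpiLC at r = 0.984, with R1 without activin A at 0.964 and with R1 with activin A at 0.954. Genes are not independent replicates, and these correlations are a description. E14 EpiLC, the shallowest library, was thus the control nearest to the Otx2-/- library.

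Otx2 itself, on chromosome 14 at 49277859 to 49282547 (genome build mm9, counted from 1), had 107, 151 and 39.9 FPKM in the controls and 15.8 in the Otx2-/- library. The Otx2-/- value lay below all 3 controls, E14 being the nearest, with a ratio of FPKM + 1 of 2.44. The labels do not give the deleted stretch and FPKM does not separate exons, so 15.8 FPKM does not test the label. In ESC, Otx2 had 7.85 FPKM in the Otx2-/- library, inside the range of 3.96 to 9.09 of the 3 controls. The spread of the controls was wide (mean 99.1 ± 55.8 FPKM, SD, n = 3), and the log2 difference of -2.38 (SE 0.73) missed the limma threshold (adjusted p = 0.941).

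Of the 11800 genes, 3111 (26.4%) lay above the range of the controls and 3285 (27.8%) below it. At least a 2-fold gap to the nearest control, on log2(FPKM + 1) and with 5 FPKM in a library, was found for 21 genes above (0.178%) and 30 below (0.254%). The smallest gaps inside this rule were those of Hipk3 (1.01) and Podxl (-1.01), and just outside it lay Serpinh1 (0.99) and Parp10 (-0.98). In the limma fit over 8 libraries, 2 genes passed as higher (0.0169%), BC017158 and AA467197, and 1 as lower (0.00847%), Fgf5. With small RNAs and failed estimates included, 17 entries were higher (0.14%) and 3 lower (0.0247%), 15 of them small RNAs. An unadjusted p under 0.05 was found for 166 higher and 255 lower genes of the 11800. Without E14 EpiLC the 2-fold counts were 92 and 221 and the limma calls 4 higher and 11 lower, and without R1 EpiLC lacking activin A limma called 4 higher. Outside the small RNAs and failed estimates, all other differences given here did not pass limma over all genes. They are measured distances from 3 control libraries. In bulk RNA, fewer cells of a type and less RNA per cell cannot be told apart.

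**Figure D1:**
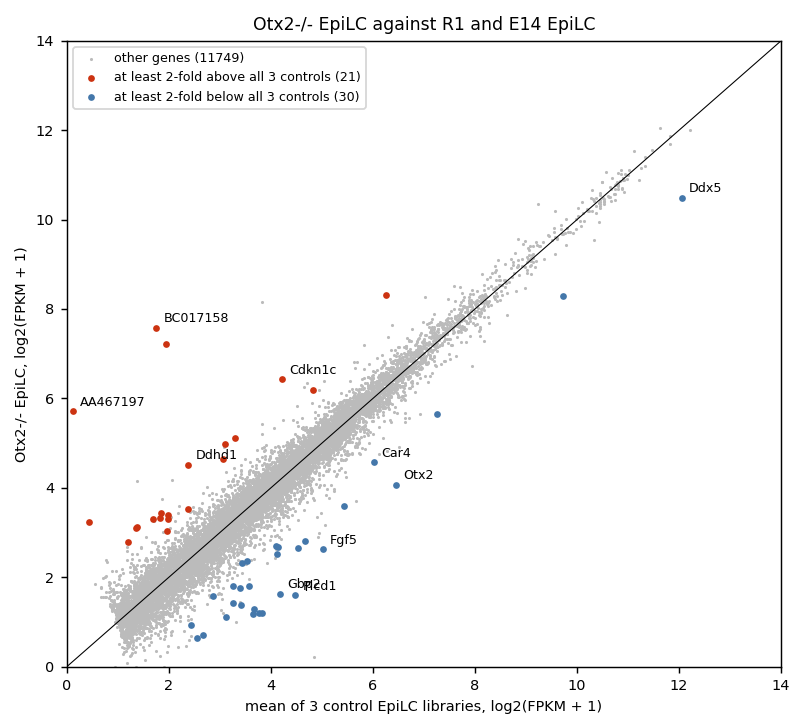
Each point is a gene, with the mean of log2(FPKM + 1) over the 3 control EpiLC libraries on the horizontal axis and log2(FPKM + 1) of the Otx2-/- EpiLC library on the vertical axis, and the line marks equality. Red points are the 21 genes at least 2-fold above all 3 controls and blue points the 30 at least 2-fold below. BC017158 and AA467197 stand farthest above the line.

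Fgf5, which encodes a secreted fibroblast growth factor that marks the early post-implantation epiblast, showed the largest gap below the controls. It lies on chromosome 5 at 98683203 to 98706049 and had 28.4, 35.8 and 30.4 FPKM in the controls and 5.18 in Otx2-/- EpiLC. The 3 controls were close to each other, and the Otx2-/- value was 6.08 times below their mean of 31.5 ± 3.83 (SD, n = 3). The log2 difference was -2.39 (SE 0.21, limma adjusted p = 0.0105). With the 4 EpiLC libraries fitted alone the difference remained -2.39 but did not pass (limma adjusted p = 0.11). In ESC all 4 libraries had between 0.451 and 0.809 FPKM, so the 5.18 FPKM of Otx2-/- EpiLC was above every ESC library. Downstream of Fgf5, the entry 1700007G11Rik had 1.45, 1.70 and 1.08 FPKM in the controls and 0.205 in Otx2-/- EpiLC, the lowest of the 4. The other neighbours, Antxr2, Prdm8 and Bmp3, were under 1 FPKM in all 4 EpiLC libraries.

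Of 22 measured genes of the FGF and ERK pathway, 5 lay above the range, 4 below and 13 inside, against 26.4% above and 27.8% below over all genes. Their median log2 difference was -0.02, and Fgf5 alone passed limma. Below the range with Fgf5 were Phlda1, Spry1 and Etv5, by less than 2-fold. Fgf4, the FGF ligand of naive cells, had 80.6, 114 and 73.2 FPKM in the controls and 76.1 in Otx2-/- EpiLC, inside their range. Fgf8, another ligand, had 1.45, 2.28 and 6.99 in the controls and 8.75 in Otx2-/- EpiLC, where E14 and Otx2-/- were the high pair. The receptor gene Fgfr1 was at 17.2, 15 and 23.6 in the controls and 27.6 in Otx2-/- EpiLC. Phlda1, a target of ERK signalling, was lowest in Otx2-/- EpiLC, at 1.01 FPKM against 3.02, 4.15 and 2.01. The feedback inhibitor gene Dusp6 was at 44.5, 30.1 and 74.7 in the controls and 48.6 in Otx2-/- EpiLC, within the control spread.

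Of 23 measured genes of the formative and primed epiblast, 5 lay above the range, 6 below and 12 inside, shares near those over all genes (26.4% above, 27.8% below). Their median log2 difference was 0.08 against 0.01 over all 11800 genes. The POU factor gene Pou3f1 had 72.2, 42.0 and 68.9 FPKM in the controls and 74.2 in Otx2-/- EpiLC. Dnmt3b, a de novo DNA methyltransferase gene, had 239, 159 and 337 in the controls and 289 in Otx2-/- EpiLC, inside their range. Below the range with Fgf5 and Otx2 were the keratin gene Krt18, at 70.9, 84.6 and 20.6 against 12.0 FPKM, and the zinc finger gene Sall2, at 17.2, 17.5 and 18.4 against 11. Krt18 set R1 apart from both other lines, while for Sall2 the 3 controls were alike and only the Otx2-/- library was lower. Above the range were Lef1, a Wnt effector gene (9.97, 11.6 and 11 against 19.7 FPKM), and Sox3, a gene of neural and epiblast cells (14.9, 8.42 and 12.0 against 19.7). Neither passed limma (adjusted p = 0.941 for each).

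Naive pluripotency genes were low in Otx2-/- EpiLC as in the controls. Of 15 measured, 10 lay inside the control range, 4 above and 1 below, against 26.4% above and 27.8% below over all genes, and the median log2 difference was -0.15. Of those above, Klf2, Tdh and Nr5a2 had higher values in all 4 ESC libraries, and Gbx2 did not. Klf4, a naive transcription factor gene whose mean is under 1 FPKM, had 1.09, 0.840 and 0.905 in the controls and 1.03 in Otx2-/- EpiLC. Nanog had 106, 164 and 85.8 FPKM in the controls and 102 in Otx2-/- EpiLC. The threonine dehydrogenase gene Tdh was the farthest above, at 14.2, 5.34 and 28.9 against 41.8 FPKM. It had between 246 and 449 FPKM in the 4 ESC libraries. Klf2, another naive factor gene, was at 28.2, 34.5 and 22.3 against 46.2. Of 15 general pluripotency genes 8 lay inside the range, 6 above and 1 below, against 26.4% above and 27.8% below over all genes. Pou5f1 (Oct4) had 525, 548 and 528 FPKM against 592, and Sox2 103, 131 and 69.8 against 100, so the first was the highest of 4 close values and the second lay inside.

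**Figure D2:**
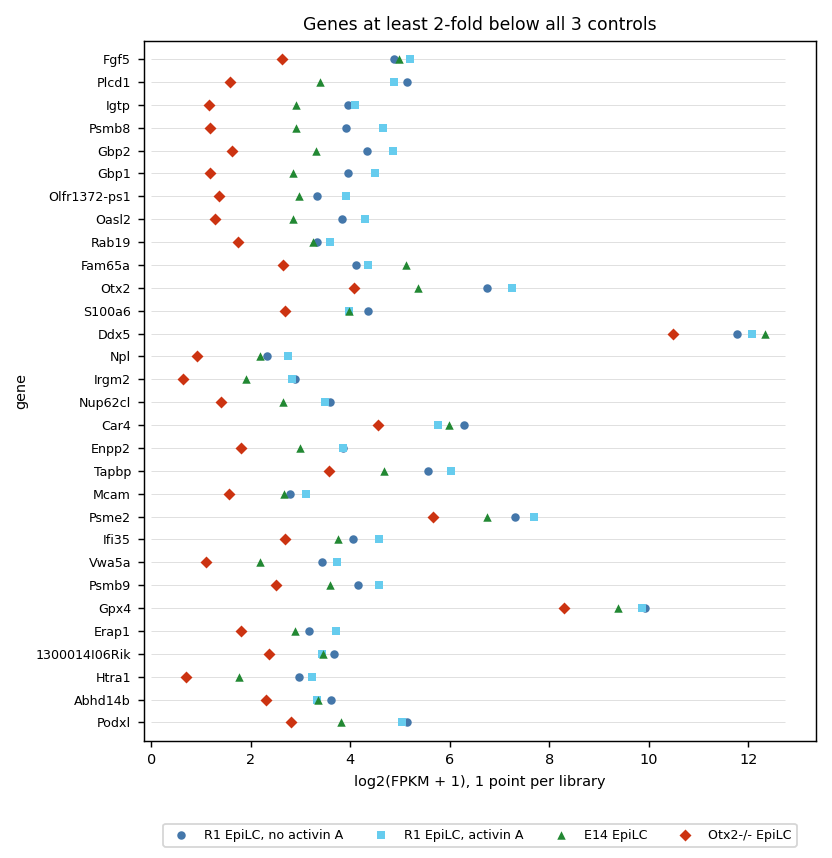
The 30 genes at least 2-fold below all 3 controls, ordered by the size of the gap, with log2(FPKM + 1) on the horizontal axis and 1 point per EpiLC library. Otx2-/- EpiLC (red) is the lowest point in every row, and E14 EpiLC (green) is the nearest control in 24 of the 30.

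Interferon response genes made up 11 of the 30 genes below. Interferons bind surface receptors, which signal through STAT and IRF transcription factors to switch on GTPases that attack intracellular pathogens, the immunoproteasome and the machinery that loads peptides onto MHC class I. A list of 55 such genes was drawn up after these values had been seen, so its counts describe the pattern and test nothing. Of its 36 genes averaging 1 FPKM or more, 31 lay below the control range, 3 above and 2 inside. Over all genes 27.8% lay below and 26.4% above. The median log2 difference was -1.25, against 0.01 over all 11800 genes, and 0 passed limma, while 23 had an unadjusted p under 0.05. Over all 55 members, whatever their level, 43 were lower in Otx2-/- EpiLC than in each control.

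Guanylate-binding and immunity-related GTPase genes had 7 of 7 measured members below the range, against 27.8% over all genes. Their median log2 difference was -1.90, the lowest median of the groups in the list. Gbp2, on chromosome 3 at 142283627 to 142300972, had 19.3, 27.9 and 8.95 FPKM in the controls and 2.09 in Otx2-/- EpiLC. Its neighbour Gbp1, at 142257811 to 142282140, had 14.5, 21.5 and 6.19 in the controls and 1.28 in Otx2-/- EpiLC. Igtp, an immunity-related GTPase gene on chromosome 11 at 58013058 to 58021094, had 14.6, 16.2 and 6.47 against 1.25. For each of these the libraries fell in the same order, with R1 with activin A highest, E14 below both R1 libraries and Otx2-/- below E14. Irgm2, next to Igtp at 58028479 to 58036285, had 6.46, 6.06 and 2.74 FPKM against 0.565. Irgm1 departed from the order, since E14 was its highest control at 7.61 FPKM, with 4.38 and 5.92 in R1 and 2.25 in Otx2-/- EpiLC. Members of these families resemble each other in sequence, and how reads shared between them were assigned is not given in the sources used here.

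Upstream stretches of 3 of these GTPase genes are shown because they hold the short motif that interferon-activated factors bind. They end at the base before the RefSeq start (build GRCm38.p6, forward strand, RefSeq promoter table). Capitals mark GAAANNGAAA, the core of the interferon-stimulated response element, on either strand, and TTCNNNGAA, the palindromic STAT motif.

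Gbp1 (RefSeq symbol Gbp2b, chr3:142594697-142594846): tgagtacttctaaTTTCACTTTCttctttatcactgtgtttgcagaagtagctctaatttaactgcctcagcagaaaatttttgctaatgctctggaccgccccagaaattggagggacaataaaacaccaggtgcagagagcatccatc
Igtp (chr11:58199406-58199555): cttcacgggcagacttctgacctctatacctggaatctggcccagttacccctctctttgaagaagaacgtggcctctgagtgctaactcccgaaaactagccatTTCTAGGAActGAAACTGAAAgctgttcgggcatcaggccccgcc
Irgm2 (chr11:58214827-58214976): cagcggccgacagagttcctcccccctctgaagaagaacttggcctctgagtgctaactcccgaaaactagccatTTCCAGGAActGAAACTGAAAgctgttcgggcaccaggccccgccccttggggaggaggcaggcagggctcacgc

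The response element begins 137 bases before the start in Gbp1, on the opposite strand, 34 before it in Igtp and 64 before it in Irgm2. In Igtp and Irgm2 the STAT motif lies just upstream, at 45 and 75 bases before the start, and shares no base with the response element. The longest run of bases common to those 2 stretches is 38, and that of Igtp and Gbp1 is 6. Over 250 bases upstream and both strands, GAAANNGAAA was found in 5 of the 26 matched genes of the 30 below (19.2%), namely Gbp1, Gbp2, Igtp, Irgm2 and the Rab GTPase gene Rab19, and in 3.46% of 27025 RefSeq symbols. TTCNNNGAA was found in 5 of the 26 (19.2%) and in 8.13% of all. The Otx motif TAATCC was found in 3 of the 26 (11.5%), namely Gbp1, Oasl2 and Otx2, and in 7.21% of all. Of the 17 matched genes of the 21 above, 1 held GAAANNGAAA, 1 TTCNNNGAA and 3 TAATCC. Of the 11 interferon response genes below, 4 held GAAANNGAAA (36.4%) and most did not. A match describes these letters only.

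Genes that process and present antigen were below the range in 13 of 14 cases (27.8% over all genes), with a median of -1.36. Psmb8, which encodes a catalytic subunit of the immunoproteasome, on chromosome 17 at 34335140 to 34338399, had 14.1, 24.4 and 6.47 FPKM in the controls and 1.28 in Otx2-/- EpiLC. Its neighbour Psmb9, another catalytic subunit gene, had 16.8, 23 and 11.1 against 4.71. The proteasome activator gene Psme2 was among the more highly expressed, with 157, 205 and 106 FPKM against 49.6. All 3 were highest in R1 with activin A and lowest in Otx2-/- EpiLC. The peptide transporter genes Tap1 (16.6, 16.4 and 8.45 against 5.09) and Tap2 (4.23, 6.56 and 2.01 against 0.725) lay below the range by less than 2-fold. So did the MHC class I heavy chain gene H2-K1, at 26.9, 34.2 and 23.1 against 12.3. Tapbp, the tapasin gene that helps load peptides, had 46.2, 64.2 and 24.6 FPKM against 11, and Erap1, which trims them, 8, 12.1 and 6.37 against 2.50. The exception was B2m, the MHC class I light chain gene, at 13.5, 7.56 and 10.5 in the controls and 9.28 in Otx2-/- EpiLC, inside their range.

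Among the upstream genes of the pathway, 5 of 5 measured transcription factor and signalling genes lay below the range, against 27.8% over all genes. The ligand genes Ifng and Ifnb1 were listed at 0 in all 4 EpiLC libraries. The receptor genes Ifngr1 (6.6, 7.15 and 4.43 against 7.23 FPKM), Ifngr2 (3.24, 3.23 and 3.29 against 4.09) and Ifnar1 (10.1, 10.1 and 11.6 against 11.7) all lay slightly above the range. Irf1, the most abundant transcription factor gene of the list, had 76.7, 109 and 52.3 FPKM in the controls and 27.2 in Otx2-/- EpiLC, a gap of -0.92. Stat2, a subunit of the interferon-activated complex, had 14.8, 18.6 and 8.82 against 6.72, below the range. Socs1, an inhibitor of the pathway, was at 8.92, 9.08 and 7.07 against 5.83. Of 7 other effectors 6 lay below the range. Among them, Oasl2, an oligoadenylate synthetase-like gene, had 13.2, 18.7 and 6.2 FPKM against 1.43. The membrane protein gene Bst2 differed little, at 135, 127 and 124 against 119.

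E14 moved with this result: in 29 of the 36 genes E14 EpiLC lay below both R1 libraries, against 4941 of all 11800 genes. Summed FPKM over the list were 894, 1128 and 639 in the controls and 395 in Otx2-/- EpiLC, and between 211 and 239 in the 4 ESC libraries, where Otx2-/- had 233. Without E14 EpiLC, limma called 11 genes lower and 4 higher. Of the 11 lower, 6 were interferon response genes, namely Gbp1, Gbp2, Igtp, Oasl2, Psmb8 and Cd274, and the others were Fgf5, Krt18, Podxl, Slc40a1 and Vwa5a. The 4 higher were BC017158, AA467197, Crct1 and Rxrg, and in the last pair E14 itself was close to Otx2-/- EpiLC, with 5.10 against 5.38 FPKM and 3.16 against 3.43. Gbp2 then had a log2 difference of -2.97 (SE 0.25, limma adjusted p = 0.0209). The 2-fold count of the list was 21 of 36 without E14 and 11 with it. Over all 11800 genes the 2-fold count below also rose, to 221 without E14 from 30 with it. The part of line, activin A and depth in these differences was not tested. In the tetON line doxycycline raised 2 and lowered 1 of the 36, against 3.95% raised and 3.42% lowered over all genes. The rule was a 2-fold ratio with 5 FPKM in a library. Gbp2 had 0.0162 FPKM without and 0.222 with doxycycline, and Psmb8 0 and 0.0521, all too low for the rule. Summed FPKM over the list were 266 without doxycycline and 296 with it.

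**Figure D3:**
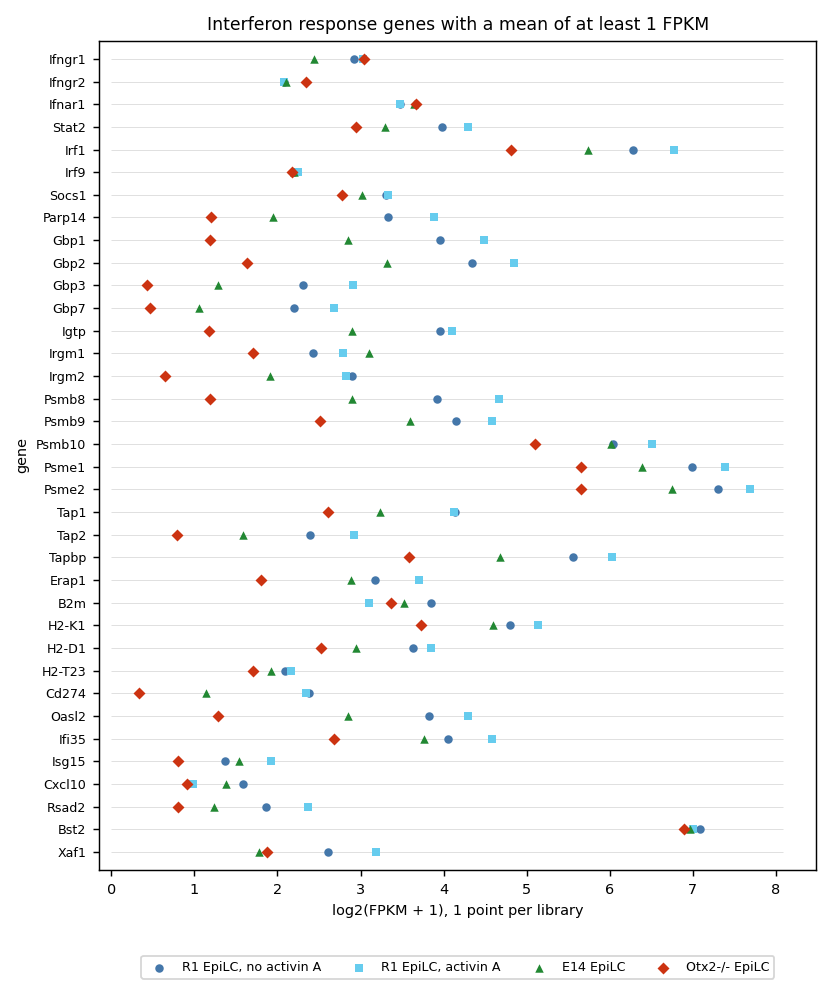
The 36 interferon response genes that averaged 1 FPKM or more, ordered by role from receptors through signalling genes, GTPases and antigen processing to other effectors, with log2(FPKM + 1) on the horizontal axis and 1 point per EpiLC library. Otx2-/- EpiLC (red) is the lowest point in 31 rows, and the 3 receptor genes at the top have it as the highest.

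Other genes at least 2-fold below all controls had varied functions. Plcd1, a phospholipase C gene, had the second largest gap, with 34.2, 28.6 and 9.56 FPKM in the controls and 2.01 in Otx2-/- EpiLC. In ESC the 4 libraries had between 5.24 and 14.5 FPKM, so the Otx2-/- EpiLC value was below them too. Rab19, a small GTPase gene of membrane traffic, had even controls, at 9.06, 11.1 and 8.49 against 2.37 (log2 difference -1.64, SE 0.21, limma adjusted p = 0.0856). Car4, a membrane-bound carbonic anhydrase gene on chromosome 11 at 84771256 to 84779556, had 76.9, 53.5 and 62.0 FPKM in the controls and 22.7 in Otx2-/- EpiLC. Its log2 difference was -1.44 (SE 0.24, limma adjusted p = 0.343), and ESC libraries had at most 0.318 FPKM. Gpx4, which encodes the glutathione peroxidase that protects lipids from oxidation, had 973, 928 and 664 FPKM in the controls and 314 in Otx2-/- EpiLC.

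Ddx5, an RNA helicase gene, was the most abundant of the 30, at 3476, 4315 and 5139 FPKM in the controls and 1435 in Otx2-/- EpiLC, and its highest control was E14. In ESC it had 3471, 3508 and 2065 FPKM in the controls and 3622 in the Otx2-/- library, so the low value was not seen there. Podxl, a sialomucin gene of the apical membrane, had 34.4, 31.7 and 13.1 against 6.02. The calcium-binding protein gene S100a6 had 19.5, 14.7 and 14.6 against 5.44, with the controls close together. Enpp2, which encodes autotaxin, had 13.5, 13.4 and 6.95 against 2.48, and the protease gene Htra1 had 6.86, 8.42 and 2.39 against 0.631. Also below were Olfr1372-ps1, Fam65a, Npl, Nup62cl, Mcam, Vwa5a, 1300014I06Rik and Abhd14b. Of the 30, 13 had under 1 FPKM in all 4 ESC libraries, as did 4 of the 21 genes above. The share over all genes was not counted, and the rule selects genes with 5 FPKM in an EpiLC library.

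BC017158 and AA467197 were the 2 genes that passed as higher, and they were far from every other library. BC017158, on chromosome 7 at 135409211 to 135441645, had 1.77, 1.93 and 3.66 FPKM in the controls and 190 in Otx2-/- EpiLC. Its log2 difference was 5.83 (SE 0.35, limma adjusted p = 0.00109). The AA467197 entry spans bases 122463623 to 122466812 of chromosome 2. It had 0.0772, 0.169 and 0 FPKM in the controls and 51.6 in Otx2-/- EpiLC, with a log2 difference of 5.6 (SE 0.23, limma adjusted p = 0.000106). In ESC the distances were small: Otx2-/- had 4.18 FPKM of BC017158 and 0.201 of AA467197, against at most 3.14 and 0.496 in the controls. With doxycycline the tetON line had 6.39 and 1.31 FPKM.

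The genes beside them did not share a difference of this size. Slc30a4, Pldn, Armc5, Tgfb1i1 and Tial1 were above all 3 controls by far less, and Gatm, Spata5l1 and Rgs10 lay inside their range. Next to AA467197, Spata5l1 had 6.37, 4.97 and 7.87 FPKM in the controls and 6.92 in Otx2-/- EpiLC, and Slc30a4 had 1.54, 1.45 and 1.62 against 2.30. Next to BC017158, Armc5 had 2.38, 2.21 and 3.19 against 3.84, and Tial1 23.7, 25.5 and 25.7 against 31.7. The glucose transporter gene Slc5a2 shares the locus entry of BC017158 in the tables, with 0 FPKM in each control and 0.119 in Otx2-/- EpiLC. The protocol describes no strand marking, and overlapping genes there cannot be told apart.

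**Figure D4:**
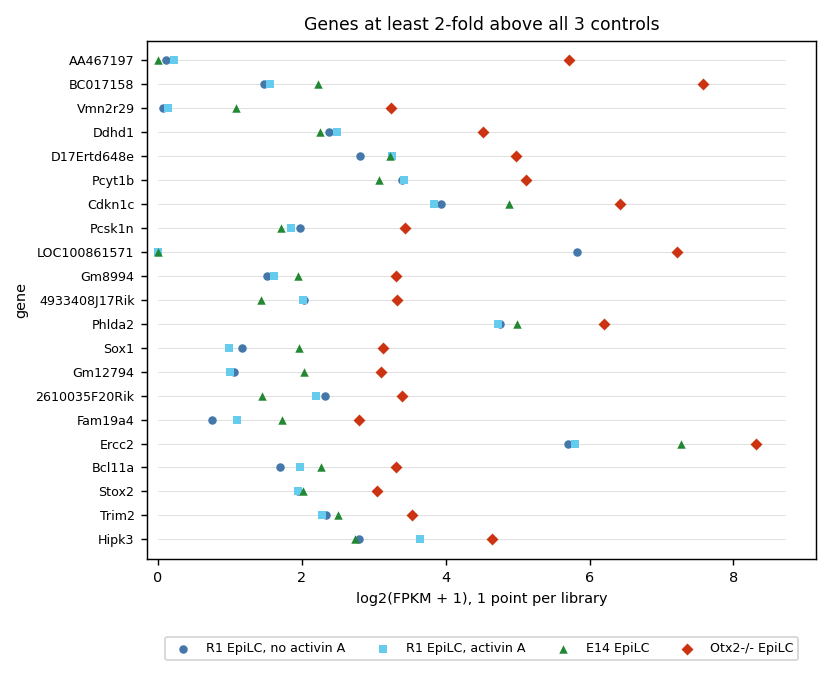
The 21 genes at least 2-fold above all 3 controls, ordered by the size of the gap, with log2(FPKM + 1) on the horizontal axis and 1 point per EpiLC library. Otx2-/- EpiLC (red) is the highest point in every row, and LOC100861571 is at 0 in 2 of the 3 controls.

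A phospholipase A1 gene, Ddhd1, came next among genes with even controls, at 4.20, 4.63 and 3.76 FPKM against 21.8 (log2 difference 2.14, SE 0.25, limma adjusted p = 0.0562). Pcyt1b, an enzyme gene of phosphatidylcholine synthesis, had 9.45, 9.71 and 7.44 in the controls and 33.7 in Otx2-/- EpiLC. Pcsk1n, a gene for a neuroendocrine protein that inhibits a prohormone convertase, had 2.94, 2.60 and 2.26 against 9.84. In all 3 the controls lay close together and the Otx2-/- value stood alone among the EpiLC libraries. In ESC, Pcyt1b was also highest in the Otx2-/- library, at 51.0 FPKM against 28.2, 14.5 and 22.7. There Ddhd1 lay inside the control range and Pcsk1n below it. Ercc2, a helicase gene of transcription and DNA repair, had 51.2, 54.5 and 154 against 318, with E14 between R1 and Otx2-/-. LOC100861571 had 55.7 FPKM in R1 without activin A, 148 in Otx2-/- EpiLC and 0 in the other controls and in all ESC libraries. It was the only member of the 51 for which the R1 pair differed by 2-fold on FPKM + 1. The entries LOC100861570 (60.1, 0 and 0 against 405 FPKM) and LOC100861572 (169, 0 and 0 against 144) were set aside as failed estimates. LOC100861571 was kept only because its median over all 10 libraries was under 5 FPKM, so its value is uncertain. Hipk3, a kinase gene, had 5.94, 11.5 and 5.65 against 24.0, and ESC libraries ranged from 2.62 to 53.9 FPKM.

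Imprinted genes, which are expressed from 1 parental allele, held 2 of the 21. Cdkn1c, an inhibitor of cyclin-dependent kinases, on chromosome 7 at 150644244 to 150646955, had 14.2, 13.2 and 28.6 FPKM in the controls and 85.2 in Otx2-/- EpiLC, 4.56 times their mean. Phlda2, a growth-restraining gene of the same cluster at 150687453 to 150688429, had 26.0, 25.5 and 30.7 in the controls and 72.3 in Otx2-/- EpiLC. Kcnq1ot1, the noncoding RNA of that cluster, had 4.17, 4.78 and 6.38 against 6.50, close to E14. Of 23 measured imprinted genes 10 lay above the range, 7 below and 6 inside, with a median log2 difference of 0.20 (26.4% above and 27.8% below over all genes, median 0.01). Among those below, the neuronal gene Nnat had 10.5, 10.4 and 8 FPKM against 4.97. H19, a noncoding RNA, had 122, 22.4 and 8.55 against 6.46, so that the R1 pair differed more from each other than E14 did from Otx2-/-. Neither Cdkn1c (limma adjusted p = 0.685) nor Phlda2 (0.941) passed.

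Of 13 measured anterior and neural genes, 8 lay above the control range, 1 below and 4 inside, with a median of 0.47 (26.4% above and 27.8% below over all genes, median 0.01). Sox1, an early neural transcription factor gene, was the only member at least 2-fold above, at 1.25, 0.975 and 2.88 FPKM in the controls and 7.73 in Otx2-/- EpiLC. The neuronal tubulin gene Tubb3 had 4.71, 2.36 and 6.83 against 9.07. Sox11 had 9.57, 9.45 and 11.1 against 14.2, and Gbx2, which opposes Otx2 at the midbrain-hindbrain border, had 18.7, 5.69 and 22.1 against 27.2. In these 4 genes E14 was the nearest control. Hhex, a homeobox gene of the anterior endoderm, was the only member below, at 3.88, 5.49 and 4.11 against 2.72. The remaining genes of the list, among them Six3, Rax, Lhx5 and Hesx1, had a mean under 1 FPKM. Bcl11a, a zinc finger gene of the 21, had 2.24, 2.95 and 3.80 against 8.87.

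Of 19 Nodal and activin pathway genes 7 lay above the range, 3 below and 9 inside, against 26.4% above and 27.8% below over all genes, with a median log2 difference of 0.01. The antagonist genes Lefty1 and Lefty2, which are targets of the pathway, were the farthest above. Lefty2 had 8.91, 30.6 and 49.9 FPKM in the controls and 75.2 in Otx2-/- EpiLC, and Lefty1 34.3, 111 and 140 against 200. Both were higher in R1 with activin A than without it, and since activin A is not given for E14 and Otx2-/- EpiLC, it cannot be told apart from genotype here. The ligand gene Nodal had 30.2, 41.3 and 51.8 against 52.6, and the receptor gene Acvr2b, at 27.4, 24.6 and 22.5 against 22.9, lay inside the range. Of 21 Wnt pathway genes 10 lay above, 3 below and 8 inside, with a median of 0.07. The receptor gene Fzd10 had 1.41, 1.57 and 4.62 against 8.63. Of 13 BMP pathway genes 6 lay above and 2 below, none by 2-fold, with a median of 0.18.

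Genes of the 2-cell-like state belong to near-identical copies with uncertain values. They were above the range in 4 of 4 measured cases, against 26.4% over all genes, with a median of 1.59. Gm8994 had 1.85, 2.05 and 2.86 FPKM in the controls and 8.87 in Otx2-/- EpiLC. Zscan4d had 0.620, 0.414 and 1.19 against 4.04. Summed FPKM over the list were 5.25, 6.32 and 11.5 in the controls and 33.4 in Otx2-/- EpiLC. In ESC they were 13.9, 30.5 and 25.9 in the controls and 99.4 in the Otx2-/- library. In both states the Otx2-/- library had the highest sum of its 4 libraries. The tetON Otx2-/- ESC line had still higher sums, 144 FPKM without and 295 with doxycycline, where Otx2 had 45.8 and 1059.3 FPKM. The part of Otx2 in these sums was not tested.

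Germline genes lay below the range in 8 of 18 measured cases and above it in 0, against 27.8% below and 26.4% above over all genes, with a median log2 difference of -0.07. Mael, a gene of the piRNA pathway, had even controls, at 40.4, 37.0 and 35.1 FPKM against 18.2. Dazl, an RNA-binding protein gene of germ cells, had 5.02, 5.78 and 5.86 against 3.24, and Stag3, a meiotic cohesin gene, 19.5, 26.8 and 13.6 against 9.19. DNA repair genes were below in 12 of 20 and above in 1, with a median of -0.12 and small gaps: the largest were those of Fancg (7.03, 8.16 and 8.19 against 5.08) and Fanci (34.8, 37.3 and 29.2 against 21.9). Of 26 genes of epithelial junctions and keratins 8 lay below and 2 above, with a median of -0.19. The adherens junction gene Cdh1 had 135, 121 and 151 against 136, inside the range. E14 was below both R1 libraries in 19 of the 26, against 4941 of all 11800 genes.

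Summed glycolysis and hypoxia levels were lower in E14 and Otx2-/- EpiLC than in R1. Of 30 glycolysis and hypoxia genes 18 lay inside the control range, 11 below and 1 above, against 27.8% below and 26.4% above over all genes, with a median log2 difference of -0.22. E14 was below both R1 libraries in 28 of the 30, against 4941 of all 11800 genes. Their summed FPKM were 10570 and 9914 in R1, 7281 in E14 and 7936 in Otx2-/- EpiLC. Hk1, a hexokinase gene, had 24.1, 31.2 and 15.3 against 12.3. Of 24 cholesterol and lipid genes 9 lay inside, 8 below and 7 above, and of 22 genes of mitochondrial respiration 11 lay inside, 8 below and 3 above. Of 24 cell cycle genes 15 lay inside, 5 below and 4 above. Of 16 lysosome and metallothionein genes 7 lay below and 0 above, with a median of -0.26, led by the iron exporter gene Slc40a1 (42.7, 42.0 and 15.7 against 9.82 FPKM). Over all 11800 genes, 5404 lay inside. For DNA methylation 9 of 12 lay inside, 2 above and 1 below. For chromatin regulators 11 of 24 lay inside, 6 above and 7 below. For p53 and stress genes 9 of 21 lay inside, 4 above and 8 below. Of the genes counted in these lists 0 passed limma, with an unadjusted p under 0.05 for 1 lysosome list member and 1 chromatin regulator.

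Markers of other cell types were summed in each library. Of 15 primitive endoderm genes 7 were measured, 3 below the range and 0 above. The defining genes Gata6, Gata4 and Sox17 were under 1 FPKM in every EpiLC library. Other members were expressed: Sparc had 66.9, 55.5 and 52.3 FPKM against 36.3, and Dab2 2.57, 1.68 and 3.40 against 2.33. The summed list was 181, 163 and 165 FPKM in the controls and 141 in Otx2-/- EpiLC. Trophoblast genes summed to 36.0, 34.0 and 12.5 in the controls and 18.6 in Otx2-/- EpiLC. Of 7 measured, 4 lay below the range and 0 above, against 27.8% below and 26.4% above over all genes. Cdx2 was under 1 FPKM in all 4 EpiLC libraries and Tpbpa was listed at 0 throughout. Expressed members included Eomes, at 5.42, 7.61 and 3.71 FPKM against 3.47, and Ascl2, at 5.04, 3.46 and 2.09 against 1.83. Fibroblast genes summed to 66.6, 79.6 and 72.3 against 89.3 FPKM, with 2 of 5 measured above the range and 2 below. Most of the sum was the fibronectin gene Fn1, highest in Otx2-/- EpiLC at 66.7 FPKM against 46.5, 65.1 and 46.1, and the inhibitor gene Timp1 had 16.7 against 11, 8.36 and 13.7. Postn and S100a4 were at 0 in all 4 libraries and Col1a1 at most 0.569. Low but measured were Thy1 (2.25, 2.04 and 2.80 against 1.90), Tagln (2.34, 2.32 and 2.47 against 1.72) and Dcn (1.47, 0.785 and 3.51 against 0.960). The part of other cell types in the results was not tested. Of 19 mesoderm and endoderm genes 3 were measured, 1 above and 2 below, and T had 0.455, 0.548 and 0.431 against 0.341 FPKM.

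In ESC, the same 2-fold rule applied to the Otx2-/- library and its 3 controls gave 23 genes above (0.199%) and 4 below (0.0347%) of 11533. These libraries are separate from those of the EpiLC comparison. Genes above in both states were Gm12794, Gm8994 and D17Ertd648e, 14.3% of the EpiLC list and 13.0% of the ESC list. D17Ertd648e had 6.02, 8.51 and 8.33 FPKM in control EpiLC and 30.5 in Otx2-/- EpiLC, and 6.07, 19.4 and 18.3 in control ESC against 48.4. Of the 30 genes below in EpiLC, 0 were 2-fold below in ESC. However, 13 of the 30 had under 1 FPKM in all 4 ESC libraries and could not meet the rule of 5 FPKM. With 4 genes below in ESC in all, the count of 0 does not show a difference between the states.

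Induction of Otx2 in ESC gave a measurement in separate libraries, with 1 library on each side and so no replicate check. Otx2 had 45.8 FPKM without and 1059.3 with doxycycline. The value without it was already above E14 EpiLC (39.9) and above the 4 ESC libraries (3.96 to 9.09). The value with it was far above the control EpiLC mean of 99.1. The pair thus compares 2 levels of Otx2 and not its absence with its presence. By the rule of a 2-fold ratio and 5 FPKM in a library, 466 genes were raised (3.95%) and 403 lowered (3.42%) of 11800. Of the 30 genes below in Otx2-/- EpiLC, 9 were raised (30%) and 3 lowered (10.0%). Leaving out Otx2 itself, 8 of 29 were raised (27.6%). Car4 had 0.193 FPKM without and 51.3 with doxycycline, and Podxl 11.9 and 65.2. Npl, a gene of sialic acid breakdown, had 4.47 and 34.2, and Gpx4 610 and 2333. Also raised were Olfr1372-ps1, Fam65a, Vwa5a and Abhd14b. Fgf5 had 0.373 and 3.63 FPKM, under the 5 FPKM needed to be counted. Plcd1 went the other way, from 12.8 to 4.81, as did Mcam and Htra1.

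Of the 21 genes above in Otx2-/- EpiLC, 5 were lowered by doxycycline (23.8%) and 4 raised (19%). Those lowered were Pcyt1b, from 31.9 to 3.57 FPKM, Phlda2, from 30.3 to 6.55, Ddhd1, from 25.1 to 8.65, Trim2 and Pcsk1n, from 11.3 to 4.34. For Pcyt1b, Phlda2 and Trim2 the value with doxycycline was below all 4 ESC libraries. Ddhd1 and Pcsk1n were instead high without doxycycline, since the 4 ESC libraries had 5.41 to 8.05 and 2.81 to 7.50 FPKM. Sox1 had 3.27 and 0.475 FPKM, under the 5 FPKM rule. Raised were Hipk3, from 4.29 to 280 FPKM, Cdkn1c, from 5.46 to 12.5, Ercc2 and Gm8994. Krt18, below the EpiLC range by less than 2-fold, had 2.66 FPKM without and 144 with doxycycline.

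Some entries carried an exact 0 beside a median of at least 5 FPKM over all 10 libraries. In the EpiLC libraries there were 25 such entries, 14 of them at 0 in E14 and 6 in Otx2-/- EpiLC. The latter are described by their values only. Fancd2, a Fanconi anaemia gene, and Kdm4a, a histone demethylase gene, were listed at 0 in Otx2-/- EpiLC alone. By chromosome, the median log2 difference between Otx2-/- and control EpiLC lay between -0.03 and 0.07.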

How the data were processed

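Per the labels' protocols, the sequenced RNA was polyadenylated and copied with random primers. The values the authors deposited are FPKM for each gene. The submitters' processing notes name TopHat, Cufflinks and mm9, and their versions and settings are not given here. Each table held 23112 entries. Exact repeats (17) were dropped, and 228 entries that shared a symbol with another were summed. Coordinates are those of the tables, with starts counted from 1.

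Small RNAs were recognised by symbol or by a span under 200 bp. An entry at 0 in a library against a median of at least 5 FPKM over all 10 libraries was taken as a failed estimate. Differences were fitted with limma 3.58.1 in R 4.3.3 (trend, two-sided) on log2(FPKM + 1), with a pseudocount of 1 FPKM and 1 mean for each of 4 groups over 8 libraries. Adjustment was Benjamini-Hochberg over 12159 genes, with a threshold of 0.05. The scale understates changes of low genes. The lone Otx2-/- libraries are assumed to vary like the controls, and p-values measure the spread between these libraries, which includes line and activin A. Approximate depth is the inverse of the lower quartile of olfactory receptor FPKM values above 0, taken as 1 fragment per kilobase. It is a rough estimate, resting on 53 such genes in E14 EpiLC.

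The comparison and 27 gene lists were chosen with earlier results of these data known, and the interferon list and its genes after their values here had been seen. 1 gene of that list is not reported here. Named genes are Otx2, 8 markers, genes passing limma, the 15 largest 2-fold gaps each way, up to 4 members of each list with the largest gaps, and up to 10 genes of opposite direction with doxycycline. Other names were chosen after their values were seen. No result is read from the lists of sex-chromosome genes (2 of 4 above, 1 below) and of mesenchymal and matrix genes (7 of 24 above, 9 below). Alternatives covered the pseudocount, the filter, the scaling, a line term, the size of the gap and each control library left out.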

Additional observations from a re-analysis of the deposited data

Results flagged for a closer look

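The difference between Otx2-/- and control cells itself differed between EpiLC and ESC for 2 genes, by an interaction term in the limma fit over all genes. AA467197 was higher by 5.6 on the log2 scale in EpiLC and lower by 0.10 in ESC (log2 difference -0.10), a difference of 5.70 (SE 0.32, limma adjusted p = 0.000754). BC017158 was higher by 5.83 in EpiLC and 0.60 in ESC, a difference of 5.23 (SE 0.50, limma adjusted p = 0.0149). Each rests on 1 Otx2-/- library per state. For Fgf5 the interaction of -2.20 (SE 0.29) did not pass (limma adjusted p = 0.104).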

How the results depend on the processing

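Leaving out each control library in turn changed the counts most when the library was E14 EpiLC, which gave the highest value of each range that follows (R1 EpiLC lacking activin A also gave 4 higher in limma). Without 1 replicate, genes above the range numbered 3413 to 5319 (3111 with all), genes below 3611 to 4993 (3285), 2-fold above 24 to 92 (21), 2-fold below 31 to 221 (30), limma higher 2 to 4 (2) and limma lower 1 to 11 (1). With a pseudocount of 5 FPKM the 2-fold counts were 10 above and 8 below, with 0.1 FPKM 48 were below, with a gap of 1.5-fold they were 78 and 110, and with a gap of 4-fold 4 and 1. A mean of at least 5 FPKM left 11 above, and no filter gave 4938 above the plain range. The interferon count of 11, under alternatives chosen after seeing the data, was 21 at 1.5-fold, 1 with a pseudocount of 5 FPKM and 0 at 4-fold. Limma called 21 higher and 2 lower with no filter. A line term for E14 gave 2 lower, and the 4 EpiLC libraries alone gave 0 lower, with 258 genes at an unadjusted p under 0.05. The cause was not tested. Over these fits the limma adjusted p ranged from 0.00537 to 0.11 for Fgf5, from 6.31e-05 to 0.0451 for BC017158 and from 3.1e-06 to 0.0153 for AA467197. Of 2036 alternatives over 138 named genes, 2018 kept direction and call, 13 passed newly, 1 no longer passed and 4 turned in sign. These were Nanog without R1 EpiLC with activin A (log2 difference -0.37 to 0.095 over leaving out 1 replicate) and Sox2 with an E14 line term (-0.052), quantile scaling (-0.066) and without E14 EpiLC (-0.21 to 0.24 over leaving out 1 replicate). No paired analysis was possible because each Otx2-/- group holds 1 library and shares at most 1 replicate number with its controls. The shallowest control, E14 EpiLC at 6.6M fragments, limits the precision of low values.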
